A study of Mus musculus with 11 samples.

Results

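Pulmonary artery banding (PAB) ties a thread around the vessel through which the right ventricle empties, so that this chamber pumps against a narrowed outlet. The comparison described here set the 2 P7 PAB libraries against the 3 P7 sham libraries of an RNA-seq series that holds 11 libraries in all. All animals were C57BL/6 mice operated on P0, and the hearts of these 5 libraries were collected at P7. Sham animals had surgery but no tie was placed. The labels call the tissue heart and the methods of the study speak of ventricles, and the labels give neither the sex nor the number of animals in a library. The other 6 libraries, 3 of P3 sham and 3 of P3 PAB hearts, entered the fit so that the 4 groups shared 1 estimate of the spread. The members of the comparison were the 15056 autosomal genes that passed a filter on low counts, out of 44390 autosomal genes listed and 50600 rows in the table. Values are CPM, the counts of a gene per 1e+06 counts after scaling of the library by edgeR's TMM method, and positions are those of GRCm38.

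The heart of a newborn mouse changes its muscle proteins and its fuel within days. Fetal isoforms of contractile proteins give way to adult ones, glycolysis gives way to the oxidation of fatty acids, and cardiomyocytes leave the cell cycle. A ventricle that pumps against a raised pressure thickens its wall and is known to express natriuretic peptides, skeletal alpha actin and beta myosin heavy chain, genes that are otherwise typical of the fetal heart. The comparison asked which of these programs differed after a week of banding, and by how much.

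The P7 libraries held 21942163 to 26820228 counts, and 3 counts, taken as the floor of detection, stood for 0.126 to 0.148 CPM. Several measures other than the operation separated the same libraries. Xist, which silences an X chromosome in female cells, ranged from 630 to 936 CPM in the 3 libraries of P7 sham and stood at 0.873 and 0.345 CPM in those of P7 PAB, while Ddx3y of the Y chromosome was at most 0.437 CPM in P7 sham and at 47.1 and 42.9 CPM in P7 PAB. Gene levels also fell with exonic length in P7 PAB, with slopes of -0.16 and -0.14 on the log2 scale per doubling of length, against -0.03 to 0.04 in P7 sham. Mitochondrial transcripts took 18.1% and 18% of the counts in P7 PAB and 21.1 to 22.2% in P7 sham. At P7 the operation, the Xist and Y class and the length trend cannot be told apart. Further fits were therefore made, the length fit, with the length trend removed from each library, and the class fit, with a term for Xist and Y class. The latter can be estimated only because P3 sham holds libraries of both classes. It rests on P3 sham 1, the only Xist-high library at P3, and assumes the same class difference at both ages. Calls kept or lost in the class fit may thus reflect that library. Nothing in the labels says that the libraries came from separate litters, so p-values measure the spread between these libraries, which may be technical.

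Between P7 PAB and P7 sham, 1441 autosomal genes rose and 1272 fell by 1.5-fold or more with an adjusted p no higher than 0.05 (edgeR's quasi-likelihood test, Benjamini-Hochberg over all genes tested). These were 9.57% and 8.45% of the genes tested, the shares against which the counts of the lists below are to be set. On the log2 scale the median change was 0.83 among genes that rose and -0.82 among genes that fell, and 66 genes rose and 87 fell by more than 4-fold. Both PAB libraries lay outside the range of the 3 sham libraries on the same side for 9099 genes, of which 4653 were higher and 4446 lower in PAB. With the length trend removed, 925 genes (6.14%) rose and 1031 (6.85%) fell, of which 768 and 789 were among those called before. With a term for Xist and Y class, 1150 rose and 891 fell. In RNA from a whole tissue, fewer cells of a type and less RNA per cell cannot be told apart.

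**Figure D1:**
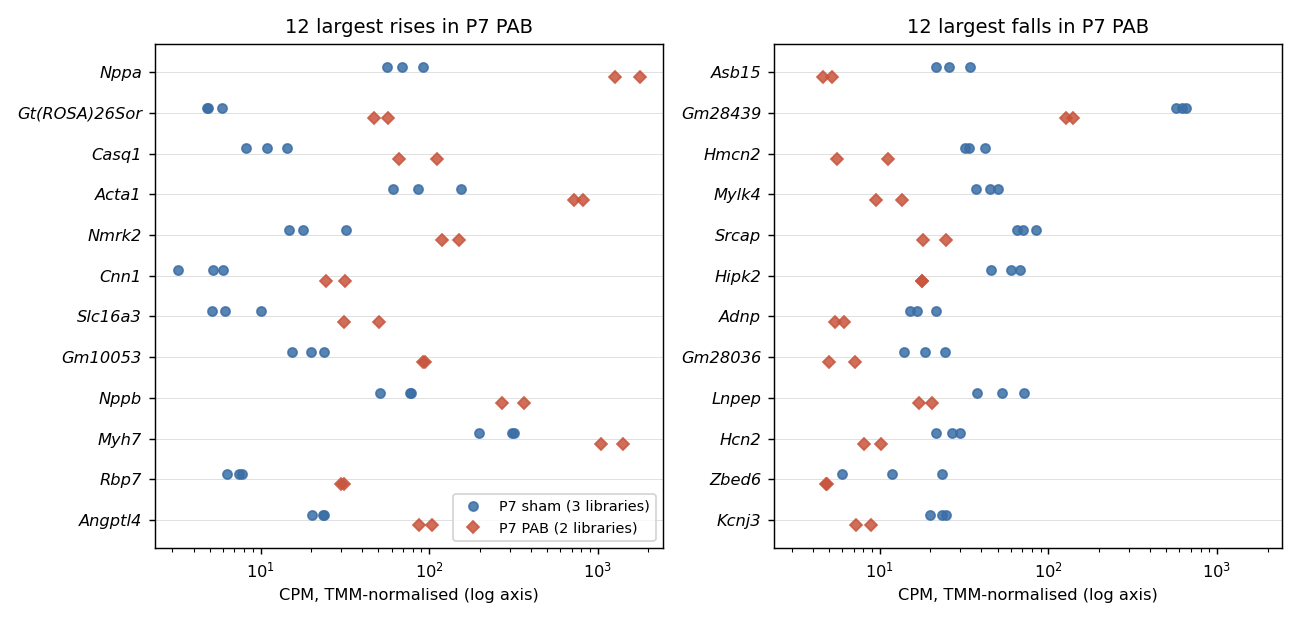
Level of the 12 genes with the largest rise (left) and the 12 with the largest fall (right) among those at a mean of at least 10 CPM in the P7 libraries, in CPM on a log axis. Circles are the 3 P7 sham and diamonds the 2 P7 PAB libraries. The 24 genes were chosen among called genes whose groups do not overlap, so that by choice no diamond lies within the range of the circles.

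Among called genes at a mean of at least 10 CPM in the P7 libraries and without overlap of the groups, the largest rise was that of Nppa. Nppa, the gene of atrial natriuretic peptide (ENSMUSG00000041616, chromosome 4, 148000722 to 148002079), was at 91.6, 69.2 and 56.3 CPM in P7 sham and at 1786 and 1265 CPM in P7 PAB. The groups lay far apart, and the log2 fold change was 4.40 (standard error 0.32, edgeR adjusted p = 3.16e-07). Nppb, the gene of B-type natriuretic peptide (chromosome 4, 147985788 to 147987205), was at 77.8, 77.1 and 51.1 CPM in sham and at 367 and 270 CPM in PAB (log2 fold change 2.21, standard error 0.26, adjusted p = 1.09e-05). Acta1, skeletal alpha actin (chromosome 8, 123891769 to 123894751), was at 154, 85.8 and 61 CPM in sham and at 820 and 720 CPM in PAB. Sham 1 was the highest of the sham libraries for each of these 3 genes, and still lay below both PAB libraries. The log2 fold change of Acta1 was 2.94 (standard error 0.33, adjusted p = 8.03e-06). Myh7, the beta myosin heavy chain, was at 197, 320 and 312 CPM in sham and at 1046 and 1409 CPM in PAB (log2 fold change 2.15, standard error 0.25). Reads of Nppa and Myh7 may include some of an overlapping antisense gene, since the strand setting of the counting is not given in the sources used here.

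Of the 14 genes listed for hypertrophy and stretch, 13 were tested, 10 rose and none fell, with a median log2 fold change of 1.11 against -0.0025 over all autosomal genes. Beside the 4 genes above, Ankrd1, a stretch-sensitive repeat protein of the sarcomere, was at 759, 736 and 635 CPM in sham and at 1948 and 1328 CPM in PAB (log2 fold change 1.21). Csrp3, the muscle LIM protein of the Z disc, was at 501, 459 and 476 CPM in sham and at 1041 and 895 CPM in PAB (1.02). Both genes were higher in either PAB library than in any sham library. Rcan1, an inhibitor of calcineurin, rose by a log2 fold change of 0.81, Uchl1, a deubiquitinase, by 1.11 and Fhl2, a LIM protein of the sarcomere, by 0.59, a call that was lost with the length trend removed (0.32) and without PAB 1, sham 2 or sham 3 (lowest 0.55). Gdf15, a stress-induced cytokine, was near 1 CPM in sham and at 2.93 and 3.6 CPM in PAB, and its rise of 1.54 was not called with a term for Xist and Y class. Acta2, smooth muscle actin, had overlapping groups (log2 fold change 0.42), and the actin-binding Xin proteins Xirp2 (0.22) and Xirp1 (0.02) were not called either. With the length trend removed 9 of the 13 rose, with a median of 0.84.

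The promoters of 2 of these genes are shown because they hold sequence elements known from heart muscle genes. The window of Nppa held no match of these elements, and of 2 RefSeq starts of Myh7 the window of 1 held an MCAT element and that of the other none. Each window is the 250 bases before the RefSeq start on GRCm38.p6, written 5′ to 3′ along the strand of the gene. Capitals mark matches of the MCAT element (GGAATG, or CATTCC on the other strand), of a GATA site (AGATAA) and of the CArG box, which binds serum response factor. The window of Nppb lies on the plus strand at chr4:147985650-147985899, with the MCAT element at bases -105 to -100 and the GATA site at -84 to -79 from the start. The window of Acta1 lies on the minus strand at chr8:123894776-123895025, with the CArG box at -73 to -64 and the MCAT element at -46 to -41.
Nppb: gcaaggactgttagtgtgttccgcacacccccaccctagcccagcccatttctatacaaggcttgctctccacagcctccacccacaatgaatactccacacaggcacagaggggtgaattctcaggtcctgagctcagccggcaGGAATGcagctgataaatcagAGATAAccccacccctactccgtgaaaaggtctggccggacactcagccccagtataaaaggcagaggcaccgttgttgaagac
Acta1: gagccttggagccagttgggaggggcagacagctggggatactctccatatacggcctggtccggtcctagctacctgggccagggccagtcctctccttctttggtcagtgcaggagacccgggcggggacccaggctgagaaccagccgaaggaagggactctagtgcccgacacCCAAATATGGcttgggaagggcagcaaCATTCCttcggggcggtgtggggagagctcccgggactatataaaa
MCAT letters stood on either strand in 300-base promoters, which add the 50 bases after the start, of 5 of the 12 hypertrophy and stretch genes with a promoter sequence (41.7%) and of 12.3% of the 10537 tested autosomal genes that had one. CArG boxes stood in 7 of 33 sarcomere promoters (21.2%) against 1.31% of all. Among all genes that rose the shares were 13.7% for MCAT and 1.71% for the CArG box. These are matches of letters and do not show binding.

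Among 39 sarcomere genes 9 rose (23.1%) and 3 fell (7.69%), against 9.57% and 8.45% of all genes, and 5 fell without sham 1. With the length trend removed 7 rose and 3 fell, and with a term for class 8 rose and 3 fell. Their median log2 fold change as counted was 0.03. Beside Acta1 and Myh7, the rises included other isoforms known from the fetal ventricle, from smooth or from skeletal muscle, and also 2 genes of the adult heart. The latter were Actc1, cardiac alpha actin (0.65), and Tnnc1, cardiac troponin C (0.80), neither of which was called with the length trend removed, nor Actc1 without PAB 1 (0.45). Tnni1, slow skeletal troponin I and the form of the fetal heart, was at 510, 502 and 567 CPM in sham and at 1233 and 1246 CPM in PAB (log2 fold change 1.23, standard error 0.07, edgeR adjusted p = 9.06e-08). Tpm2, beta tropomyosin, was at 82, 62.3 and 50.5 CPM in sham and at 236 and 182 CPM in PAB (1.69). Myl9, a regulatory light chain of smooth muscle, was at 218, 176 and 143 CPM in sham and at 796 and 443 CPM in PAB. The PAB libraries differed from each other for Myl9, and its log2 fold change of 1.79 was 1.31 without PAB 1 and 2.16 without PAB 2. Myl1 (1.62) and Myl4 (1.31), light chains of skeletal muscle and of the atrium and fetal ventricle, also rose, Myl4 not with a term for Xist and Y class. Myh6, the adult alpha myosin heavy chain and the most abundant of these transcripts, was at 34840, 28180 and 32740 CPM in sham and at 17890 and 16630 CPM in PAB (log2 fold change -0.89, standard error 0.09). Nexn, an actin-binding protein of the Z disc, fell by 0.67 on the log2 scale, and by 0.57 without PAB 2, which is under the fold change asked for. Tnni3, adult troponin I, did not differ beyond the spread (-0.06, adjusted p = 0.612).

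Taken as shares of isoform pairs, with CPM per kb of exon to allow for length, the P7 PAB libraries had more of the fetal or skeletal form of myosin, troponin I, actin and tropomyosin. Myh7 made up 0.439%, 0.879% and 0.739% of Myh7 and Myh6 in P7 sham and 4.37% and 6.21% in P7 PAB. Tnni1 made up 10.2%, 12.2% and 12.3% of the troponin I pair in sham and 23.2% and 25.3% in PAB. No PAB library lay within the sham range in either pair, and P3 sham hearts had a mean Tnni1 share of 30.3% ± 1.6 (SD, n = 3). Acta1 made up 1.13% ± 0.44 (SD, n = 3) of Acta1 and Actc1 in sham hearts and 5.42% ± 0.48 (SD, n = 2) in banded ones at P7. Tpm2 made up 2.36% ± 0.44 (SD, n = 3) of Tpm2 and Tpm1 in sham and 7.07% ± 0.63 (SD, n = 2) in PAB. Rpl3l, the muscle form of ribosomal protein L3, went the other way. Its share was 5.89% ± 0.29 (SD, n = 3) in sham hearts and 2.42% ± 0.29 (SD, n = 2) in banded ones at P7, and P3 sham hearts had a mean of 2.44%. These shares are given without a test.

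**Figure D2:**
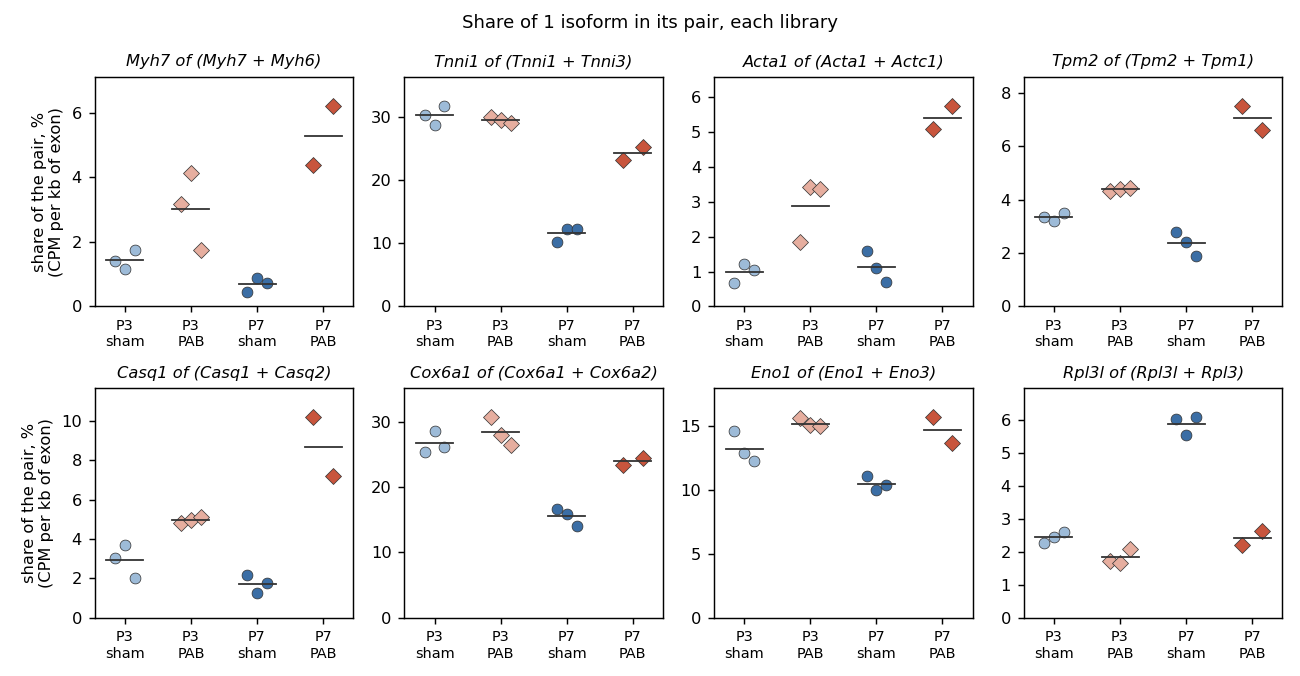
Share of the first isoform in its pair, in percent of the summed CPM per kb of exon, for 8 pairs and each of the 11 libraries, with a line at the group mean. Circles are sham and diamonds PAB libraries, pale at P3 and dark at P7. In P7 PAB the Myh7, Acta1, Tpm2 and Casq1 shares lie above every other library, and the Tnni1 share lies between P7 sham and P3 sham.

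Genes of calcium handling were lower in PAB where they were called, with a single exception. Of 25 tested, 6 fell (24%) and 1 rose (4%), against 8.45% and 9.57% of all genes. Hrc, a calcium-binding protein of the sarcoplasmic reticulum, was at 370, 352 and 364 CPM in sham and at 160 and 162 CPM in PAB (log2 fold change -1.17, standard error 0.08, edgeR adjusted p = 2.09e-07). Ryr2, the calcium release channel, was at 1170, 1447 and 1557 CPM in sham and at 766 and 727 CPM in PAB (-0.90), and Atp2a2, the calcium pump SERCA2, was at 6946, 7122 and 7668 CPM in sham and at 4307 and 5068 CPM in PAB (-0.63). For these genes the groups did not overlap, but with the length trend removed Ryr2 was at -0.32 and Atp2a2 at -0.52 and neither was called, and Atp2a2 was at -0.52 without PAB 1. Over the list, 1 gene rose and 1 fell with the trend removed. The exception was Casq1, the calsequestrin of skeletal muscle (chromosome 1, 172209894 to 172219868), at 14.4, 8.21 and 11 CPM in sham and at 111 and 66.1 CPM in PAB (log2 fold change 2.99, standard error 0.24, adjusted p = 6.86e-07). Casq2, the cardiac calsequestrin, had a log2 fold change of 0.54, under the fold change asked for. Pln, phospholamban, did not differ beyond the spread (-0.10, adjusted p = 0.387).

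Ion channels of the heart were lower where they were called. Of 31 tested none rose and 12 fell (38.7%, against 8.45% of all genes), with a median log2 fold change of -0.41. With the length trend removed 7 fell, with a median of -0.20. Kcnd2, a subunit of the transient outward potassium current, was at 12.7, 11.3 and 14 CPM in sham and at 3.06 and 2.22 CPM in PAB (log2 fold change -2.26, standard error 0.17, edgeR adjusted p = 5.67e-07). Its auxiliary subunit Kcnip2 was at 99.7, 104 and 110 CPM in sham and at 52.4 and 67.4 CPM in PAB (-0.81). Both kept clear of the sham range. Hcn2, a pacemaker channel, was at 30.1, 21.6 and 26.8 CPM in sham and at 8.12 and 10.2 CPM in PAB (-1.52, standard error 0.14). Kcnj3, a subunit of the acetylcholine-gated potassium channel, was at 20, 23.5 and 24.6 CPM in sham and at 7.21 and 8.92 CPM in PAB (-1.50). Scn4a, the sodium channel of skeletal muscle, fell by 1.36 on the log2 scale and Abcc9, the sulfonylurea receptor of ATP-sensitive potassium channels, by 0.88.

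Glycolysis and glucose uptake rose in 12 of 25 genes tested (48%, against 9.57% of all genes) and fell in none, with a median log2 fold change of 0.56. With the length trend removed 13 rose, with a median of 0.66. In the class fit 13 rose and 1 fell, and without sham 1 14 rose and 1 fell. Slc16a3, the lactate exporter MCT4 (chromosome 11, 120948480 to 120960868), was at 10.1, 6.12 and 5.16 CPM in sham and at 50.2 and 31.2 CPM in PAB (log2 fold change 2.53, standard error 0.24, edgeR adjusted p = 2.79e-06). Ldha, the lactate dehydrogenase subunit (chromosome 7, 46841475 to 46855627), was at 710, 593 and 560 CPM in sham and at 1515 and 1182 CPM in PAB (1.12, standard error 0.12). Slc2a1, the glucose transporter GLUT1, was at 15.1, 12.4 and 12.3 CPM in sham and at 29.6 and 25.8 CPM in PAB (1.06). For each of the 3, sham 1 was the highest sham library and PAB 1 the higher PAB library, and the groups did not overlap. Aldoc (1.92), Eno1 (1.13), Pgam1 (1.00), Tpi1 (0.95), Gapdh (0.90), Pfkp (0.85) and Pfkl (0.81), enzymes along the pathway, also rose. Pkm, pyruvate kinase, rose by 0.65 on the log2 scale, and was at 0.52 without PAB 1 and 0.58 without sham 2, which is under the fold change asked for. Slc2a4, the insulin-dependent transporter GLUT4, was at -0.13 (edgeR adjusted p = 0.204). It was among 13 genes not called, as were Hk1 (-0.14), Hk2 (-0.38), Pfkm (-0.07), Pfkfb2 (-0.53), Gpi1 (0.53), Eno3 (0.56) and Pgam2 (0.40).

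The promoters of Slc16a3 and Ldha are shown because glycolysis genes often held the letters ACGTG, the core to which hypoxia-inducible factors are known to bind. The windows are again the 250 bases before a RefSeq start on GRCm38.p6, both on the plus strand, at chr11:120948817-120949066 and chr7:46845554-46845803. Capitals mark ACGTG or its complement CACGT, which overlap each other in CACGTG. Ldha has another RefSeq start, whose window at chr7:46846832-46847081 held no match and is not printed.
Slc16a3: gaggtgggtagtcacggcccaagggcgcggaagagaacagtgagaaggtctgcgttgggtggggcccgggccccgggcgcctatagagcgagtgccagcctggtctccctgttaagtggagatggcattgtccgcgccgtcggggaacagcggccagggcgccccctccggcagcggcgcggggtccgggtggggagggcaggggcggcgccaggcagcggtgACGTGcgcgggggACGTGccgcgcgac
Ldha: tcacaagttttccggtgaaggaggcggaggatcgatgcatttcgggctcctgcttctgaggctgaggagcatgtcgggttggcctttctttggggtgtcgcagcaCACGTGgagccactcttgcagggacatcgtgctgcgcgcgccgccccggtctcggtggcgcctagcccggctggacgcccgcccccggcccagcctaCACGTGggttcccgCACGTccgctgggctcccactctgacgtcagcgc
In 300-base promoters ACGTG stood on either strand in 11 of 24 glycolysis genes (45.8%), in 11 of 15 genes listed for the response to hypoxia (73.3%) and in 25.1% of all tested autosomal genes with a promoter. The shares were 27.3% of genes that rose and 19.4% of genes that fell.

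Of 31 fatty acid oxidation genes tested 3 rose and none fell, which is 9.68% against 9.57% of all genes. The median log2 fold change was 0.23, and 25 of the 31 were above 0. Angptl4, a secreted inhibitor of lipoprotein lipase and a known target of fatty acid receptors (chromosome 17, 33773750 to 33781830), was at 20.1, 23.3 and 23.9 CPM in sham and at 86.9 and 104 CPM in PAB (log2 fold change 2.09, standard error 0.10, edgeR adjusted p = 1.1e-08). The others were Plin5, a lipid droplet protein (0.78, not called with the length trend removed), and Echs1, an enzyme of the oxidation cycle (0.65, and 0.57 without PAB 1). Cpt1b, the carnitine transferase of muscle, was at 0.20, Cd36, a fatty acid transporter, at 0.13 and Acadm, a dehydrogenase, at -0.03, and none of these was called. Among 18 regulators of metabolism none rose and 4 fell (22.2%, against 8.45% of all genes). Ppargc1a, the coactivator PGC-1 alpha, was at 163, 239 and 229 CPM in sham and at 95.1 and 81.5 CPM in PAB (-1.25, standard error 0.14). Ppara, a fatty acid receptor of the nucleus, was at 21, 24.8 and 24.6 CPM in sham and at 11.4 and 10.3 CPM in PAB (-1.11). PAB levels of both were below every sham level, and both fell in all alternative fits, as did Ppargc1b (-0.69) and Rxrg (-0.72). Nmrk2, a kinase of muscle that makes NAD from nicotinamide riboside, was at 32.1, 17.8 and 14.8 CPM in sham and at 150 and 119 CPM in PAB (2.65, standard error 0.38).

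Nuclear genes of oxidative phosphorylation rose in 36 of 76 cases and fell in none, with a median log2 fold change of 0.57. Atp5e, a small subunit of ATP synthase, was at 137, 123 and 125 CPM in sham and at 304 and 297 CPM in PAB (1.23, standard error 0.08). Of the cytochrome oxidase subunits that are not restricted to muscle, Cox6a1 rose by 1.17, Cox7a2 by 1.09 and Cox8a by 1.12, while Cox5a (0.51), Cox4i1 (0.27) and Cox5b (0.19) were not called, and the muscle form Cox8b rose by 0.72. Cox6a1 made up 15.5% ± 1.3 (SD, n = 3) of its pair with the heart form Cox6a2 in sham and 24% ± 0.79 (SD, n = 2) in PAB. These genes are short, with a median exonic length of 1631 bases against 4178 over all genes. With the length trend removed 18 of the 76 rose, and the median was 0.31. Mitochondrial ribosome genes, with a median length of 2255 bases, rose in 20 of 77 cases, in 11 with the trend removed, in 24 in the class fit and in 31 without PAB 2.

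Cytosolic ribosome genes had a median length of 1775.5 bases, and 58 of 80 rose and 1 fell, with a median log2 fold change of 0.77. With the length trend removed 30 rose and 1 fell, with a median of 0.50. Rpl22l1, a paralog of ribosomal protein L22, was at 17.1, 17.1 and 13.1 CPM in sham and at 65 and 59.1 CPM in PAB (1.98, standard error 0.13), and Rpl38 was at 71.2, 63.2 and 63 CPM in sham and at 181 and 156 CPM in PAB (1.36). Rpl3l was the gene that fell, at 14.6, 11.8 and 12.8 CPM in sham and at 7.55 and 8.13 CPM in PAB (-0.74, edgeR adjusted p = 0.000209). Ribosomal protein genes have many processed copies in the genome, and how reads that match several places were counted is not given in the sources used here. Of 60 translation factors 11 rose and 1 fell (7 and 1 in the length fit, 12 and none in the class fit, 3 falls without PAB 2), with a median of 0.16. As counted these were 18.3% and 1.67%, against 9.57% and 8.45% of all genes. Among the translation factors Eif4ebp1, a brake on cap-dependent translation, rose by 0.84, and Eef1a2, the elongation factor form of adult muscle, was at 457, 353 and 352 CPM in sham and at 220 and 287 CPM in PAB. Its fall of 0.61 on the log2 scale was not called in the class fit (adjusted p = 0.0538, edgeR), without PAB 1 (-0.43) or without sham 1.

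Proteasome genes rose in 16 of 42 cases and fell in none, with a median of 0.52, and in 7 with the length trend removed. Psmb3, a subunit of the catalytic core, was at 55.7, 50.4 and 49.8 CPM in sham and at 126 and 116 CPM in PAB (1.21), and Psmb4 was at 71.9, 68.9 and 64 CPM in sham and at 165 and 142 CPM in PAB (1.17). Neither gene had a PAB level within the sham range. Of 29 scavengers of reactive oxygen species 13 rose, and 7 with the trend removed. Gpx3, a secreted glutathione peroxidase, was at 89.4, 89.3 and 79.8 CPM in sham and at 224 and 170 CPM in PAB (1.20), Txn1, thioredoxin, rose by 1.10, and the metal-binding Mt2 and Mt1 rose by 1.80 and 1.05. Chaperones of the endoplasmic reticulum were close to the background, with 2 of 19 risen and a median of 0.02. In the length fit none rose and 1 fell, in the class fit 3 rose, and the rises were 0 without sham 2 and 1 without sham 3, PAB 1 or PAB 2. Hspa5, the main chaperone there, was at 0.08 (adjusted p = 0.534). Of 25 cytosolic heat shock genes 6 rose and none fell, with the trend removed 2 rose and 1 fell, and without PAB 1 3 rose. As counted 24% of them rose, against 9.57% of all genes. Among the small heat shock proteins Hspb3 rose by 1.04 and Hspb1 by 0.96, Hspb1 not with the trend removed, while Hspb7 (0.51) and Hspb6 (0.45) were not called. Of 19 genes of the amino acid response 6 rose, among them Psat1, an enzyme of serine synthesis, by 0.97, and with the trend removed 3 rose and 2 fell. In the class fit 3 rose and none fell, and with class and length together 2 rose and 1 fell.

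**Figure D3:**
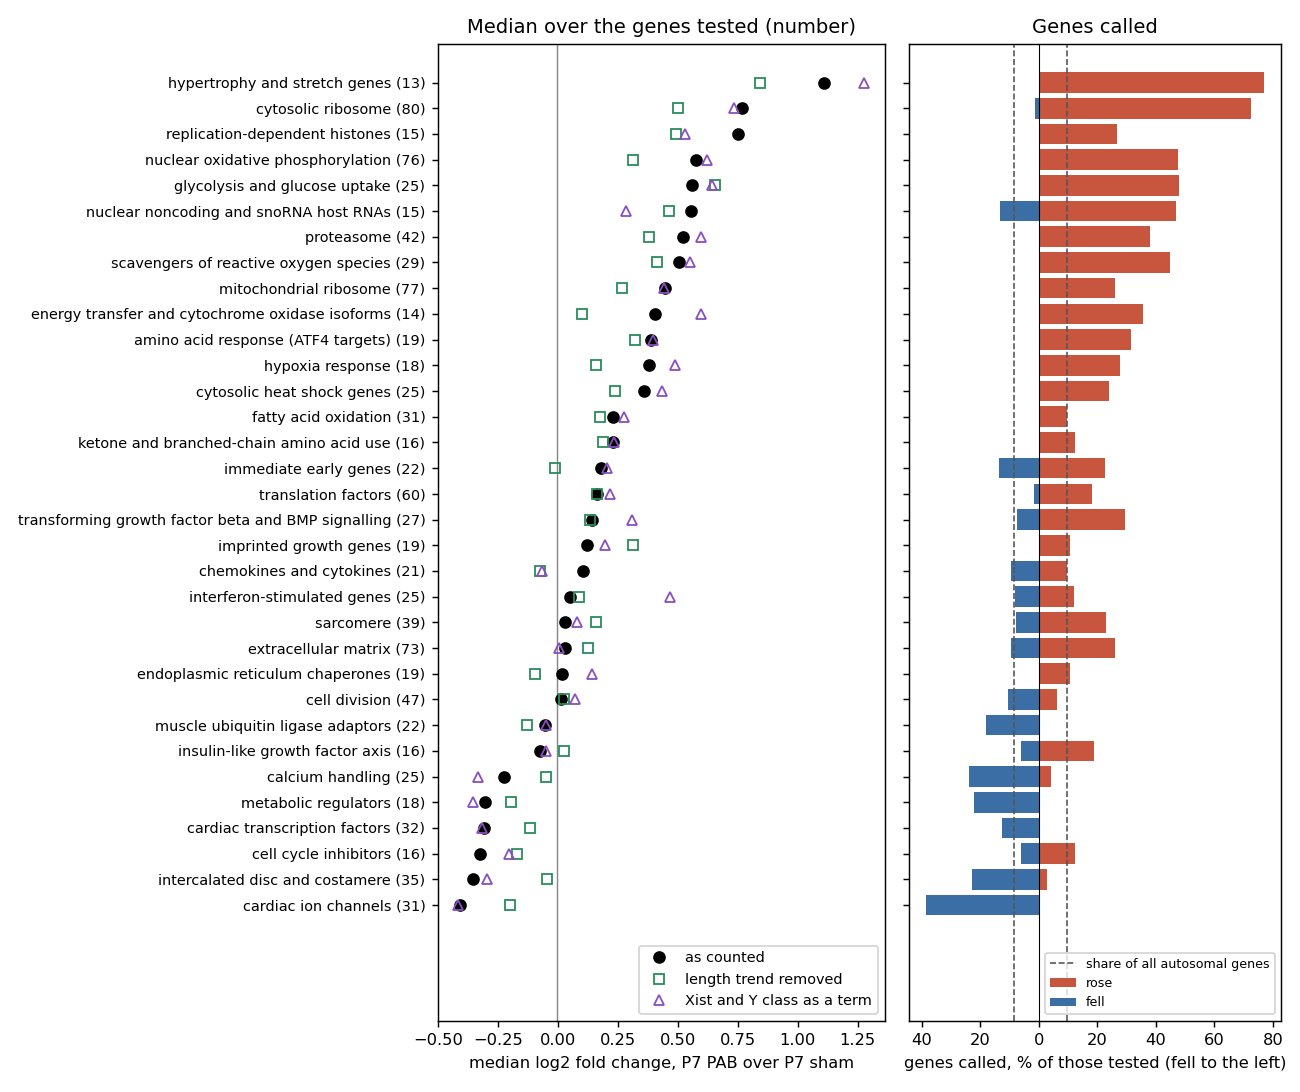
Median log2 fold change of P7 PAB over P7 sham for 33 gene lists (left; number of genes tested in parentheses) and the percent of each list called (right; rises to the right, falls to the left). Circles are the counts as deposited, squares the fit with the length trend removed and triangles the fit with a term for Xist and Y class; dashed lines mark the 9.57% and 8.45% of all autosomal genes that rose and fell. Hypertrophy and stretch genes stand highest, at 1.11, and cardiac ion channels lowest, at -0.41.

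Genes that were lower in P7 PAB included muscle-specific adaptors of ubiquitin ligases. Asb15, such an adaptor in striated muscle (chromosome 6, 24528144 to 24573164), was at 21.6, 25.8 and 34.2 CPM in sham and at 4.63 and 5.22 CPM in PAB (log2 fold change -2.47, standard error 0.25, edgeR adjusted p = 3.66e-06). Fbxo32, atrogin-1 of muscle atrophy, was at 79, 88 and 94 CPM in sham and at 41.7 and 48.3 CPM in PAB (-0.95), and Klhl38 was at 11.6, 11.5 and 12.9 CPM in sham and at 4.24 and 5.52 CPM in PAB (-1.30). In these genes every PAB level was below the lowest sham level. Of 22 genes of this list 4 fell (18.2%, against 8.45% of all genes) and none rose, and with the length trend removed 6 fell and 1 rose. Trim63, the ligase MuRF1, was at 0.06 (adjusted p = 0.463). Mylk4, a myosin light chain kinase of the heart, was at 50.1, 37.1 and 45 CPM in sham and at 9.56 and 13.5 CPM in PAB (-1.94, standard error 0.14).

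Cardiac transcription factors fell in 4 of 32 cases (12.5%, against 8.45% of all genes) and rose in none, and 6 fell in the length fit, 6 in the class fit and 8 without PAB 2. The 4 were Thrb, the thyroid hormone receptor beta (-1.22), Myocd, the coactivator of serum response factor (-1.14), Nr3c2, the mineralocorticoid receptor (-1.07), and Tbx5, a regulator of chamber formation (-0.97). Myocd was at 89.6, 93.5 and 118 CPM in sham and at 43.7 and 47.9 CPM in PAB, and Tbx5 at 20.8, 21.7 and 23.6 CPM in sham and at 10.3 and 12.2 CPM in PAB. Both were clear of the sham range, and all 4 genes fell in every alternative fit. Gata4, Nkx2-5 and Tbx20, other regulators of the heart, were at 0.22, -0.13 and 0.00 and were not called. Among the 12 largest falls, Hipk2, a kinase of the nucleus, was at 45.6, 59.9 and 67.8 CPM in sham and at 17.9 and 17.8 CPM in PAB (-1.70, standard error 0.14), and Srcap, a chromatin remodeller, was at 65.1, 70.9 and 84.6 CPM in sham and at 18 and 24.9 CPM in PAB (-1.78). Adnp, a homeobox protein (-1.63), and Lnpep, an aminopeptidase (-1.54), fell too. Zbed6, a transcription factor whose gene lies inside Zc3h11a, was at 5.96, 11.8 and 23.4 CPM in sham and at 4.85 and 4.83 CPM in PAB, so that the sham libraries were far apart, and the fall (-1.52) was not called with a term for Xist and Y class.

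Of 47 genes of cell division 3 rose and 5 fell, shares of 6.38% and 10.6%, with a median log2 fold change of 0.01. Just 2 fell with the length trend removed and 1 without PAB 2, the class fit gave 2 rises and 3 falls, and 5 rose without sham 1. Cdk1, the kinase that drives mitosis, was at 48.7, 48.1 and 32.6 CPM in sham and at 81 and 69.4 CPM in PAB (0.80), and Tyms, thymidylate synthase, rose by 0.82. Mki67, a proliferation marker, was at 225, 254 and 188 CPM in sham and at 151 and 116 CPM in PAB (-0.74). The fall of Mki67 was not called with the length trend removed (-0.48) nor without PAB 2 (-0.55). Top2a, a topoisomerase of dividing cells, was at -0.23 and Aurkb, a mitotic kinase, at 0.15, and neither was called. Of 16 inhibitors of the cell cycle 2 rose (12.5%) and 1 fell (6.25%), near the 9.57% and 8.45% of all genes, 5 were above 0 and the median was -0.32. The length fit gave 1 rise and 3 falls and the class fit 1 rise and no fall, and on leaving out 1 library the rises were 1 (without PAB 1) to 3 (without sham 1 or PAB 2) and the falls 0 (without sham 2, sham 3 or PAB 1) to 2 (without sham 1). Cdkn1a, the inhibitor p21, was at 56, 45.9 and 49.5 CPM in sham and at 85.5 and 83.6 CPM in PAB (0.74, edgeR adjusted p = 4.95e-05). Of the 16 genes of the insulin-like growth factor axis 3 rose (18.8%) and 1 fell (6.25%), with 4 falls without sham 1 and none in the class fit. Igfbp2, a binding protein, was at 0.197, 0.194 and 0.377 CPM in sham and at 1.49 and 2.42 CPM in PAB (2.87, standard error 0.43), and Igfbp3, at 19.5 to 20.9 CPM in sham, was at 35.2 and 36.2 CPM in PAB (0.82). The growth factors Igf1 and Igf2 were at -0.17 and -0.14 and were not called.

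Of 73 genes of the extracellular matrix 19 rose (26%) and 7 fell (9.59%, near the 8.45% of all genes), with a median log2 fold change of 0.03. The falls were 3 without PAB 1 and 11 without PAB 2. Eln, elastin, was at 982, 777 and 700 CPM in sham and at 1461 and 1850 CPM in PAB (1.01, standard error 0.14). Of collagens known from cartilage, Col2a1, at 0.168 to 0.34 CPM in sham and at 1.31 and 1.68 CPM in PAB, rose by 2.65, Col9a1 by 1.71 and Col9a3 by 0.88, while Col11a2 was at -0.01. Comp, a cartilage matrix protein, rose by 1.40, the collagen Col12a1 by 1.09, the thrombospondin Thbs4 by 1.06 and Spp1, osteopontin, by 1.77. Tnc, tenascin C, rose by 0.70 and Lox, a collagen crosslinker, by 0.66, and they were at 0.56 without PAB 1 and 0.55 without PAB 2. Col1a1 and Fn1, abundant products of fibroblasts, were at -0.27 and -0.18 and were not called, and Postn, periostin, was at 0.21. Col6a6 fell by 1.01, and Col3a1 had a log2 fold change of -0.59, a call that was lost with the length trend removed and without PAB 1 (-0.46) or sham 3. After removal of the length trend 20 matrix genes rose and 3 fell. Hmcn2, a large matrix protein with an exonic length of 16073 bases, was at 33.9, 32.1 and 42.2 CPM in sham and at 5.59 and 11.2 CPM in PAB, and its log2 fold change was -2.12 as counted and -1.71 with the trend removed.

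Signalling by the transforming growth factor beta family and its targets showed 8 rises and 2 falls among 27 genes, 6 and 2 in the length fit, 9 and 1 in the class fit and 4 falls without PAB 2. As counted these were 29.6% and 7.41%, against 9.57% and 8.45% of all genes, so that the share that fell was near that of all genes. Ctgf, a matricellular target, was at 67.1, 78 and 72.3 CPM in sham and at 259 and 174 CPM in PAB (1.58, standard error 0.24, edgeR adjusted p = 9.15e-05). Bmp7, a ligand, was at 12.3, 10.7 and 11.2 CPM in sham and at 26.4 and 23.8 CPM in PAB (1.14), and Fstl3, an inhibitor of activins, rose by 1.08. PAB exceeded sham in all libraries for these genes. The ligands Tgfb1 and Tgfb2 were at -0.57 and 0.02 and were not called. Smad7, an inhibitor of the pathway, fell by 0.63 on the log2 scale, a call that was lost with a term for Xist and Y class and without PAB 1 (-0.46) or sham 1.

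Genes of the intercalated disc and the costamere, the structures that couple cardiomyocytes to each other and to the matrix, are long, with a median exonic length of 8257 bases. Of 35 tested 8 fell (22.9%) and 1 rose (2.86%), against 8.45% and 9.57% of all genes, and 6 fell in the class fit and 5 without sham 3. The median log2 fold change was -0.36, and with the length trend removed none was called and the median was -0.05. Dsp, desmoplakin, was at 836, 1019 and 1045 CPM in sham and at 536 and 568 CPM in PAB, a log2 fold change of -0.81 that became -0.56. Dst, dystonin, was at 453, 547 and 579 CPM in sham and at 286 and 255 CPM in PAB, and -0.96 became -0.31. Gja1, connexin 43, was at -0.17 (adjusted p = 0.123).

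Of 21 chemokines and cytokines 2 rose and 2 fell, 9.52% each and thus near the 9.57% and 8.45% of all genes, and 5 rose without sham 1. The length fit gave 1 rise and 2 falls and the class fit 2 rises and no fall. Ccl2, which draws monocytes, was at 1.03, 0.583 and 0.88 CPM in sham and at 2.88 and 2.96 CPM in PAB (1.80, standard error 0.32, edgeR adjusted p = 0.000399). Tnf, an inflammatory cytokine, was at 0.591, 0.389 and 0.335 CPM in sham and at 0.48 and 0.246 CPM in PAB, so that the groups overlapped (-0.23, adjusted p = 0.752). Il4 did not pass the filter, with at most 0.0972 CPM in sham and at most 0.0873 CPM in PAB, both under the floor of 3 counts. Of 18 genes of the hypoxia response 5 rose (27.8%) and none fell, 4 rose and 1 fell in the length fit, and 8 rose in the class fit. Bnip3, a mitophagy receptor, was at 56, 59 and 51.6 CPM in sham and at 177 and 142 CPM in PAB (1.52, standard error 0.10), and Fam162a, a hypoxia-induced mitochondrial protein, rose by 1.45. Hif1a and Vegfa, the regulator and a growth factor it induces, were at -0.12 and -0.17 and were not called. Immediate early genes went both ways, with 5 rises (22.7%) and 3 falls (13.6%) of 22, with 2 rises and 1 fall in the class fit, no fall without PAB 1 and 3 rises without PAB 2. Atf3, a stress-induced factor, rose by 1.69 (not with a term for Xist and Y class), Maff by 0.97, and Egr1 was at -0.34 (adjusted p = 0.162).

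Marker genes showed which cells the libraries held. Summed CPM of 8 cardiomyocyte markers was 53970 to 63300 in sham and 46020 and 51690 in PAB. Of these 8, Actc1 rose, Myh6 (-0.89) and Ryr2 (-0.90) fell and 5 were not called. Myh6 held the most counts of the 8, so that its fall weighs most on the sum. The sum of 6 ventricular markers was 11110 to 12330 in sham and 15530 and 16190 in PAB, and 1 of them fell and none rose. Markers of heart muscle, the labelled tissue, were thus abundant in all 5 libraries. Of 9 fibroblast markers 3 fell (33.3%, against 8.45% of all genes), with sums of 4445 to 4582 CPM in sham and 3011 and 3712 CPM in PAB. None of them fell with the length trend removed. Of 10 endothelial markers 1 rose and none fell, with sums of 1798 to 1930 CPM in sham and 1627 and 1809 CPM in PAB, and none rose in the length fit, in the class fit or without PAB 2, where 1 fell. Of 11 macrophage markers 1 fell (2 in the class fit and without sham 3 or PAB 2), with sums of 126 to 172 CPM in sham and 117 and 133 CPM in PAB. The endothelial rise (10%) and the macrophage fall (9.09%) were near the 9.57% and 8.45% of all genes. Erythroid markers summed to 2208 to 2993 CPM in sham and 3372 and 3872 CPM in PAB, and none of the 7 was called. Atrial markers summed to 115 to 169 CPM in sham and 196 and 226 CPM in PAB, with 1 of 8 risen (Myl4, itself a member) and 1 fallen (Kcnj3). Their median log2 fold change was 0.61 and turned to -0.48 with a term for Xist and Y class. Skeletal muscle markers summed to 2.87 to 3.4 CPM in sham and 5.15 and 4.58 CPM in PAB, the direction of Acta1, Casq1 and Myl1. Pericyte markers, which include Abcc9, summed to 1566 to 1681 CPM in sham and 1083 and 1188 CPM in PAB. Of 6 smooth muscle markers 2 rose. Cnn1, calponin 1 (chromosome 9, 22099216 to 22109630), was at 5.96, 5.2 and 3.23 CPM in sham and at 31.6 and 24.4 CPM in PAB (2.56, standard error 0.29) and Tagln, transgelin, rose by 1.19, while Myh11, the myosin that defines the cell type, was at 38.3, 37.3 and 42.3 CPM in sham and at 31.5 and 35.3 CPM in PAB (-0.24, not called). The part of these cell types in the results above was not tested. Markers of T cells summed to at most 3.89 CPM and those of lung to at most 3.2 CPM in any of the 5 libraries, and Rag2, Sftpd and Scgb1a1 were at 0 in all of them.

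The remaining genes named by size were of other kinds. Gt(ROSA)26Sor, a noncoding RNA of the locus often used to insert transgenes, was at 4.78, 5.93 and 4.86 CPM in sham and at 57 and 47.2 CPM in PAB (3.33, standard error 0.12, edgeR adjusted p = 2.22e-10). It overlaps Thumpd3, which had a log2 fold change of 0.22, and next to it Setd5 was at 0.34. The study's methods also describe mice with a reporter at this locus, while the labels of these libraries name only C57BL/6, and the part of a reporter was not tested. Rbp7, a retinol-binding protein of endothelium and fat, was at 7.44, 7.77 and 6.29 CPM in sham and at 30 and 31.3 CPM in PAB (2.10). Gm10053, a predicted coding gene, rose by 2.25. Gm28439, a pseudogene on chromosome 1 that copies mitochondrial sequence, was at 655, 573 and 622 CPM in sham and at 139 and 127 CPM in PAB (-2.21). The mitochondrial genes mt-Co2 and mt-Co3 rose by 2.77 and 2.84, and since nuclear copies share reads with mitochondrial genes the values of all 3 are uncertain. Gm28036, a readthrough of Cpne1, Nfs1 and Rbm12, fell by 1.63 and shares exons with them.

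Length ordered the differences over all genes. In the shortest of 10 equal bins of genes, with a median exonic length of 1038.5 bases, the median log2 fold change was 0.35, and 27% rose and 5.84% fell. In the longest bin, with a median of 12169 bases, the median was -0.35, and 1.4% rose and 22.1% fell. The medians and the shares that rose followed in order through the bins between, while the share that fell was 4.66 to 6.1% in the next 5 bins and 8.66% or more after them. Between P3 PAB and P3 sham the same medians were 0.06 and -0.04. Genes that rose had a median length of 2278 bases and genes that fell 6211.5 bases.

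**Figure D4:**
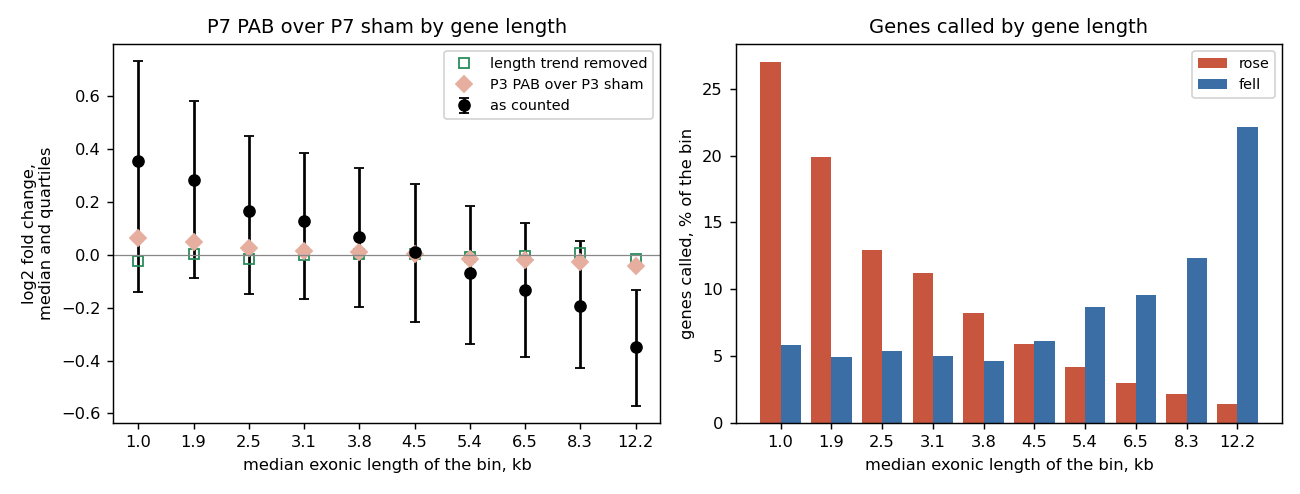
Log2 fold change (left; points are medians and bars quartiles) and percent of genes called (right) in 10 bins of the autosomal genes by exonic length, in kb. Circles are P7 PAB over P7 sham as counted, squares the same with the length trend removed and diamonds P3 PAB over P3 sham; the circles run from 0.35 in the shortest to -0.35 in the longest bin.

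The difference between the effects of banding at P3 and at P7 was tested as an interaction. It passed an adjusted p of 0.05 for 3922 autosomal genes (26%, edgeR), for 2904 in the length fit, 2198 in the class fit, 1387 with both and 2536 without PAB 1. Nppa had a log2 fold change of 1.39 at P3 and 4.40 at P7, a difference of 3.00 (adjusted p = 0.000218). Myh7 had 1.15 and 2.15, a difference of 1.00 (adjusted p = 0.0425), and Tnni1 -0.01 and 1.23, a difference of 1.25 (adjusted p = 6.34e-06). Acta1, with 1.87 at P3 and 2.94 at P7, did not pass for the difference (adjusted p = 0.083), and at P3 it was itself past the threshold (adjusted p = 0.019). Nmrk2 (1.30 and 2.65) did not pass either. Angptl4 had 0.20 and 2.09, Rbp7 0.10 and 2.10, and Hipk2 -0.04 and -1.70. Xirp2, which was at 0.22 at P7, was at 1.34 at P3. The slopes with length were 0.02 to 0.04 in P3 PAB and 0.04 to 0.07 in P3 sham, and P3 sham held 1 library of the Xist-high class and P3 PAB none, so that the ages also differ in these respects.

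**Figure D5:**
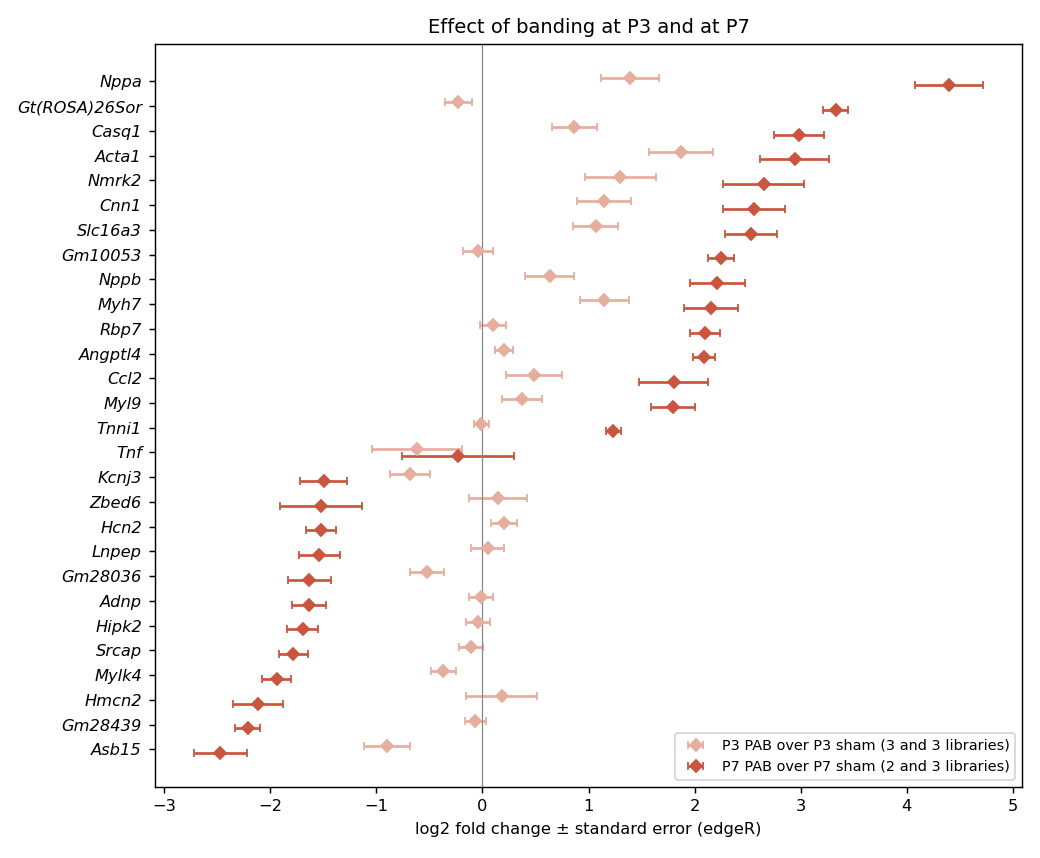
Log2 fold change of PAB over sham at P3 (pale) and at P7 (dark) for the 24 genes named by size and for Tnni1, Myl9, Ccl2 and Tnf, which the study names, with standard errors from edgeR (3 and 3 libraries at P3, 2 and 3 at P7). Nppa runs from 1.39 at P3 to 4.40 at P7, and Tnf has overlapping intervals.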

How the data were processed

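The deposited counts per gene were made by the authors from reads aligned with STAR 2.5.2b to GRCm38 (mm10), per the labels and the submitters' processing notes. The counting tool and its strand setting are not given in the sources used here. Of 50600 rows, 48575 were matched to the annotation by name, and 27 that a spreadsheet had turned into dates were not. Counts were tested with edgeR 4.0.16 (limma 3.58.1, R 4.3.3) after filterByExpr and TMM scaling, in 1 quasi-likelihood fit over the 11 libraries in 4 groups, with the contrast of P7 PAB and P7 sham and the interaction with P3. Of 15808 genes tested the autosomal ones are reported. Standard errors are the log2 fold change divided by the square root of F. Named were the 12 largest rises and 12 largest falls called at a mean of at least 10 CPM over the P7 libraries. Called genes whose groups overlapped were left out of this ranking. Genes the study names and leading members of the lists were named too, while Wdfy1 was chosen after its values were seen. The members and lists were chosen with earlier results of these data known. The length trend was removed per library by a lowess curve (span 0.3). DESeq2 1.42.0 was an alternative. Replicates differed by more than counting noise. On simulated data for this comparison (15578 genes, 197 changed 2-fold) edgeR recovered 81.7%, with 8 false calls. The simulated data held no length trend and no Xist and Y class difference, so these figures do not carry over to the real comparison. Of the 176 genes named, 68 have an exon that another annotated gene overlaps. Some genes are not reported here.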

Additional observations from a re-analysis of the deposited data

Results flagged for a closer look

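The effect of banding at P7 differed from that at P3 by edgeR's interaction test for 25 of 28 genes, against 26% of all autosomal genes. The 28 are 4 genes the study names and 24 chosen for the size of their P7 effect, a choice that favours passing, so the count is a description. The difference in log2 fold change, P7 less P3, was 3.00 for Nppa, 3.56 for Gt(ROSA)26Sor, 2.12 for Casq1, 1.42 for Cnn1, 1.47 for Slc16a3, 2.29 for Gm10053, 1.58 for Nppb, 1.00 for Myh7, 2.00 for Rbp7 and 1.89 for Angptl4. Among the genes the study names it was 1.25 for Tnni1, 1.42 for Myl9 and 1.31 for Ccl2. Among the genes that fell it was -1.57 for Asb15, -2.14 for Gm28439, -2.30 for Hmcn2, -1.57 for Mylk4, -1.68 for Srcap, -1.65 for Hipk2, -1.62 for Adnp, -1.11 for Gm28036, -1.59 for Lnpep, -1.73 for Hcn2, -1.67 for Zbed6 and -0.81 for Kcnj3. Acta1, Nmrk2 and Tnf did not pass. The groups of the 2 ages also differ in Xist and Y class and in the length trend, and over all autosomal genes 3922 passed as counted, 2904 with the length trend removed and 2198 with a term for the class.

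Genes outside the autosomes, of which only Xist, Ddx3y and 2 mitochondrial genes are described above, were called as well. On the X chromosome 107 of 527 genes tested were called, 55 higher and 52 lower in P7 PAB. On the Y chromosome 5 of 7 were called, and all were higher in P7 PAB. Of 15 mitochondrial genes 8 were called, 4 in each direction, and of 203 rows without a position 47 were called, 17 higher and 30 lower.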

How the results depend on the processing

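The counts of genes that rose and fell were 1441 and 1272, and the interaction count was 3922. With the length trend removed 925 rose, with the replicate block in addition 848, and with the Xist and Y class and the length trend together 757 rose and 531 fell. With no fold change threshold 3445 rose and 3328 fell. The interaction count was 2198 with the class as a term and 1387 with class and length together. Leaving out 1 P7 library at a time gave 1119 to 1701 rises, 1007 to 1433 falls and an interaction count of 2536 to 4579, all lowest without PAB 1 and highest without sham 1. Only 2 replicate numbers are shared at P7, the deviations of same-numbered libraries correlated at -0.0512 to -0.0086, and a fit with the replicate block called 1340 rises, 1135 falls and 3713 interactions. Without the filter on low counts 25200 genes were tested, and the fit then set the spread by the level of a gene, in place of a spread estimated for each gene. Of 2974 comparisons of named genes with their alternatives 2697 kept their call and direction, 274 lost the call and 3 changed sign. These 3 were Kcnq1ot1, a long noncoding RNA at -0.79, which was at 0.0179 with the length trend removed, 0.0032 with the replicate block in addition and 0.16 with class and length, and the cause was not tested. Of the 176 named genes 137 were called with the length trend removed, 143 with the class, 113 with both and 127 in each fit that left out a P7 library. The share of rises among calls was 53.1%, 47.3% with the length trend removed and 58.8% with class and length. With 2 PAB libraries 1 library can decide a value, and under 0.148 CPM a level cannot be told from 0.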

Other observations

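Wdfy1 and Nnt were looked at for a possible difference in substrain between the groups, which was not tested. Wdfy1, a lipid-binding protein chosen after its values were seen, was at 13.2, 13.4 and 12.4 CPM in P7 sham and at 25.7 and 26 CPM in P7 PAB (log2 fold change 0.99, standard error 0.11, edgeR adjusted p = 1.08e-05), and was at -0.07 between the P3 groups. Its exons overlap those of Mrpl44. Nnt, a mitochondrial transhydrogenase whose row was not matched because several genes share the name, held 7708 to 8705 counts in P7 sham and 9769 and 7921 counts in P7 PAB, with no scaling for depth and no test.

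Noncoding RNAs of the nucleus and host genes of small nucleolar RNAs were called in 9 of 15 cases, 7 higher and 2 lower. Removal of the length trend left 4 higher and 1 lower, and with a term for Xist and Y class 3 were higher and none lower, while 4 were higher without PAB 1. Snhg1, a host gene, was at 14.4, 13.3 and 12.2 CPM in sham and at 26.9 and 28.5 CPM in PAB (1.06). Malat1, a nuclear RNA, was at 638, 760 and 818 CPM in sham and at 337 and 344 CPM in PAB (-1.12), and was not called with a term for Xist and Y class. Of 15 tested histone genes that are made in S phase, 4 rose, among them Hist1h1c, a linker histone, at 41.3, 32.1 and 32.6 CPM in sham and 97.5 and 75 CPM in PAB (1.29). Of these histone genes 2 rose with the length trend removed, 2 with a term for Xist and Y class and none with both, and 2 without PAB 1. Most histone genes of this kind did not pass the filter on low counts.

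Of 25 interferon-stimulated genes 3 rose and 2 fell, 12% and 8%, near the shares of all genes. None rose and 1 fell with the length trend removed, 4 rose and none fell with a term for class, and 6 rose without sham 1 and 1 without sham 3 or PAB 1. Rsad2, an antiviral enzyme, was at 14.5, 13.8 and 14.9 CPM in sham and at 7.34 and 6.75 CPM in PAB (-1.03), and Ifi27 was at 10.3, 7.14 and 9.52 CPM in sham and at 15.7 and 15.5 CPM in PAB (0.79). Neither was called in every alternative. S100b, a marker of glia and Schwann cells, was at 0.296, 0.389 and 0.335 CPM in sham and at 1.57 and 1.28 CPM in PAB (2.06), while the summed level of 7 markers of these cells and of neurons was 4.28 to 5.22 CPM in sham and 4.98 and 5.62 CPM in PAB.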
